A study of Canis lupus familiaris with 9 samples.

Results

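T cell lymphoma cells from Boxer dogs (3 samples) were compared, gene by gene, with CD4+ T cells sorted from healthy hounds (3 samples). The 6 samples were chosen by their labels and are part of a study of 9 samples on CD4+ peripheral T cell lymphoma (PTCL), a cancer of mature T cells. Lymphomas from other breeds did not enter the test. The controls are labelled as normal CD4+ lymphocytes of female hounds that were 1 year old and not neutered. Boxer lymphomas 1 and 3 came from castrated males aged 6 years, and Boxer lymphoma 2 from a spayed female aged 8 years. No treatment is named for any dog. Breed, age and neutering differ together with disease between the groups, and sex differs for Boxer lymphomas 1 and 3, so their shares in any difference cannot be told apart. The source of the lymphomas is given only as T cell lymphoma cells, with no tissue and no word on sorting, so whether sorting differs between the groups is unknown. The controls carry the same details, as do Boxer lymphomas 1 and 3, and separate dogs are not stated for them. The p-values therefore reflect only how much these samples vary, which may be technical.

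CD4+ helper T cells recognise peptides on MHC class II molecules through the T cell receptor, whose signal passes through the CD3 chains and the kinases LCK and ZAP70. Naive helper cells circulate through lymph nodes with the homing receptors CCR7 and S1PR1, and after stimulation they take on fates set by transcription factors such as TBX21, GATA3, RORA and FOXP3. Boxers are known for a high frequency of T cell lymphoma, and PTCL in dogs is an aggressive disease.

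Between 11710623 and 18488468 reads were counted per library. Values are normalised reads, meaning reads divided by the authors' factor for the library, and 3 values in a row belong to replicates 1, 2 and 3. The first principal component held 72.7% of the variance and placed the controls at -123.8 to -107.1 and the Boxer lymphomas at 106.8 to 126.9. The second (10.75%) set Boxer lymphoma 1 (89.64) apart from Boxer lymphomas 2 and 3 (-38.87 and -49.11). Pearson's r between libraries, over genes, was 0.958 to 0.980 among controls, 0.899 to 0.917 among Boxer lymphomas and 0.725 to 0.776 across the groups. Genes are not independent replicates. Genes varied more among the lymphomas (median SD 0.47 log2 units) than among the controls (0.24). Both groups had transcripts of T cells: CD3E, an invariant chain of the receptor complex, had 14248, 18686 and 14556 in the lymphomas and 19717, 21022 and 21357 in the controls. The coreceptor gene CD8A of killer T cells had 5.95, 48.3 and 12.5 in the lymphomas and 30, 33.8 and 13.9 in the controls, and CD4 itself was not analysed here.

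Expression differed across a large part of the genome. Of 15155 genes tested with limma, 3256 (21.5%) were higher in the Boxer lymphomas and 2706 (17.9%) were lower at a Benjamini-Hochberg adjusted p under 0.05. The 3 Boxer lymphomas lay above the 3 controls in 4317 genes (28.5%) and below them in 3979 (26.3%), and the median log2 fold change over all genes was 0.01. Large changes were more often increases: 727 genes rose by more than 4 on the log2 scale and 227 fell by that much. Among the genes that rose, 104 had no read in any control, and 24 of those that fell had none in any Boxer lymphoma. The filter set the direction of these genes. A gene under 10 normalised reads throughout a group was tested only if all 3 libraries of the other group reached 10. Its lack of overlap was therefore built in, and list counts that include such genes carry the same limit. Without control 2 the counts were 2162 higher and 1514 lower, and without control 3 the lower count was 1642. The shares of 21.5% higher and 17.9% lower are the background for every gene group described here. A count near them says nothing about a list.

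**Figure D1:**
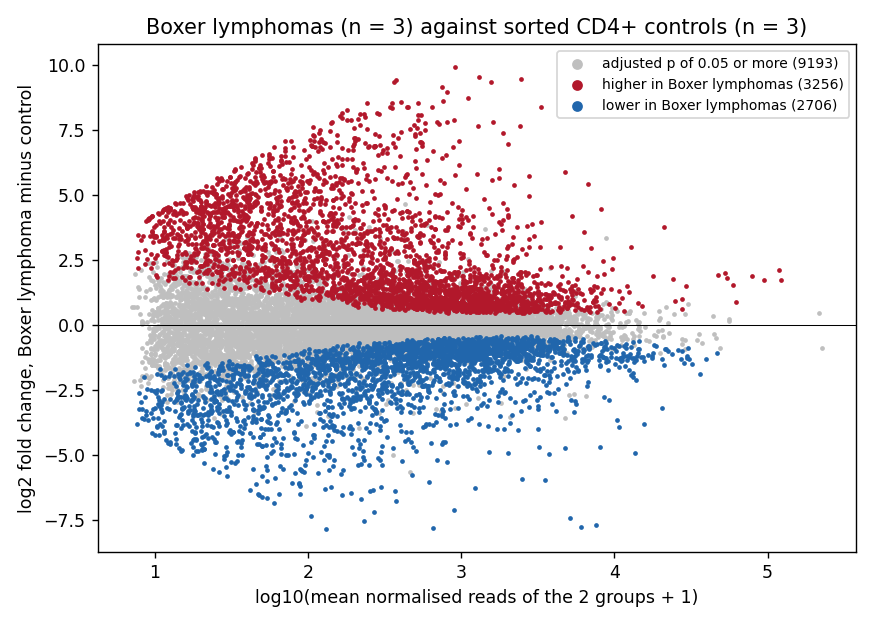
Each point is 1 of the 15155 genes tested, with the mean level of both groups on the x axis (log10 of normalised reads plus 1) and the log2 fold change, Boxer lymphoma minus control, on the y axis. Red marks the 3256 higher genes, blue the 2706 lower genes and grey the remaining genes; the red points reach further from 0 than the blue ones.

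The largest increases were in genes that the sorted T cells hardly expressed. MXRA5, a matrix remodelling protein, had 5995, 148 and 1748 in the lymphomas and 2.73, 0 and 0 in the controls (log2 fold change 9.55 ± 1.28, adjusted p = 0.00137; values after ± are SE). PTPRD, a receptor tyrosine phosphatase of the nervous system, had 10974, 1794 and 1963 in the lymphomas and 27.3, 0 and 2.78 in the controls (9.48 ± 1.21, adjusted p = 0.00115). In both, Boxer lymphoma 1 was the highest library and the groups did not overlap. HSPG2, which encodes the basement membrane proteoglycan perlecan, had 587, 487 and 1185 in the lymphomas and no read in any control, at least 739.7-fold higher. SHROOM2, a regulator of cell shape, had 976, 871 and 334 in the lymphomas and no read in any control, at least 754-fold higher. These bounds set 3 reads over the controls and cover counting error only. PALMD, which encodes the cytosolic protein palmdelphin, was at least 1671-fold higher, and this rested on Boxer lymphoma 1, since it had 4286, 141 and 103 in the lymphomas and no read in any control.

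Others of the 12 largest increases encode matrix, vessel and neuronal proteins. CLU, the secreted chaperone clusterin, had 1906, 2247 and 5231 in the lymphomas and 9.55, 6.6 and 0 in the controls (9.35 ± 0.88, adjusted p = 0.000379). MMRN2, a protein of the endothelial matrix, had 734, 775 and 607 in the lymphomas and 5.46, 0 and 0 in the controls (8.56 ± 0.76, adjusted p = 0.000314). COL4A1, a basement membrane collagen, had 626, 527 and 1956 in the lymphomas and 5.46, 0 and 0.926 in the controls (8.54 ± 0.80, adjusted p = 0.000379). Boxer lymphoma 3 had the highest CLU and COL4A1, whereas MMRN2 was at a similar level in all 3 lymphomas. DAB1, the adaptor of the Reelin pathway in neurons, had 233, 4515 and 1855 in the lymphomas and 12.3, 0 and 0.926 in the controls (8.73 ± 1.27, adjusted p = 0.00182), with Boxer lymphoma 2 highest. The transcription factor ARNT2 had 346, 728 and 386 in the lymphomas and 0, 0 and 0.926 in the controls (8.53 ± 0.54, adjusted p = 0.000163). MEGF6 and TRIM47 completed the 12, with log2 fold changes of 9.16 and 8.41. Markers of endothelium, fibroblasts and macrophages were also higher in these libraries and are given with their values further on; their part in these increases was not tested. In bulk RNA, more cells of a type and more RNA per cell cannot be told apart.

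The largest decreases included a cytokine and an inhibitory receptor of stimulated helper T cells. SULT2B1, a sulfotransferase of cholesterol, had 109, 323 and 352 in the controls and no read in any lymphoma, at least 299-fold lower. IL21, the cytokine with which helper cells support B cells, had 0, 13.3 and 0 in the lymphomas and 513, 503 and 350.1 in the controls (log2 fold change -7.53 ± 1.01, adjusted p = 0.0014). PDCD1, the inhibitory receptor PD-1, had 1.7, 16.1 and 0 in the lymphomas and 453, 469 and 669.6 in the controls (-7.19 ± 0.95, adjusted p = 0.00133). For both genes the lowest control lay far above the highest lymphoma. MDR1, the drug efflux pump P-glycoprotein, had 0, 33.2 and 7.29 in the lymphomas and 835, 700.1 and 661 in the controls (-6.80 ± 1.12, adjusted p = 0.00306). PTGDR, a receptor of prostaglandin D2, had 12.7, 20.9 and 1.04 in the lymphomas and 644, 811 and 726 in the controls (-6.41 ± 0.82, adjusted p = 0.00115). Boxer lymphoma 2 had the highest lymphoma value for IL21, PDCD1, MDR1 and PTGDR. ARNTL2, a clock transcription factor, had 18.7, 10.4 and 1.04 in the lymphomas and 651, 443 and 665 in the controls (-6.23 ± 0.80, adjusted p = 0.00115). KIAA1456 and HES4, the latter a Notch target, had log2 fold changes of -5.74 and -5.58. The other 4 of the 12 were the T cell receptor V segments TRAV29DV5, TRBV15, TRBV25-1 and TRBV3-1, which are given with the receptor chains.

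**Figure D2:**
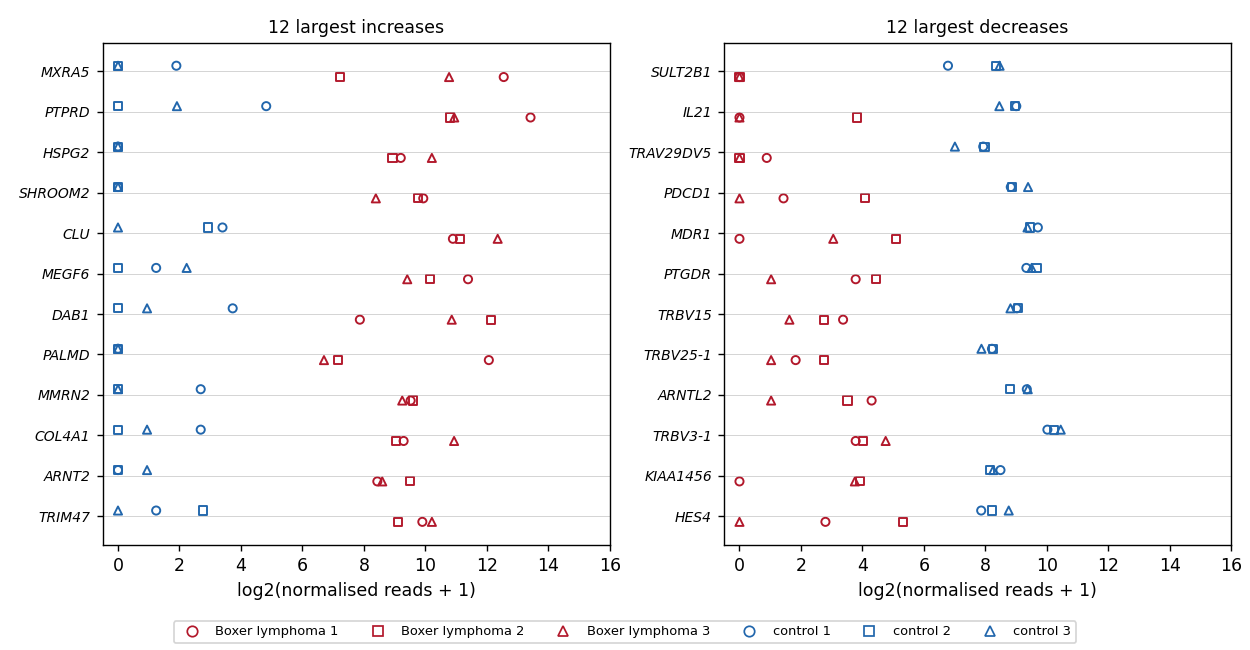
Normalised reads (log2 of value plus 1, x axis) of the 12 largest increases (left) and decreases (right) in each library; red symbols are Boxer lymphomas, blue symbols controls, and the shape gives the replicate. In every row the 3 red symbols lie on one side of the 3 blue ones, and among the 12 increases MXRA5, PALMD, DAB1 and PTPRD show the widest spread over the lymphomas.

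The 6 increases with the smallest p-values follow. A small p-value favours genes of little spread within the groups, so even levels over the 3 lymphomas are partly built in. FSCN1 encodes fascin, which bundles actin in dendritic cells and in motile tumour cells, and had 2042, 3026 and 2562 in the lymphomas and 12.3, 9.91 and 12 in the controls (log2 fold change 7.67 ± 0.28, adjusted p = 5.16e-05). CACNA2D2, an auxiliary subunit of voltage-gated calcium channels, had 4185, 2699 and 5088 in the lymphomas and 28.7, 34.7 and 25.9 in the controls (6.98 ± 0.28, adjusted p = 5.16e-05). Both were at low but nonzero levels in each control. CCR9, the receptor for the thymic and gut chemokine CCL25, had 10215, 13604 and 15476 in the lymphomas and 222, 375 and 331 in the controls (5.41 ± 0.25, adjusted p = 7.11e-05). JPH1, a protein that holds the endoplasmic reticulum to the plasma membrane in muscle, had 1415, 1621 and 1250.5 in the lymphomas and 27.3, 23.9 and 36.1 in the controls (5.58 ± 0.27, adjusted p = 8.14e-05). The spindle proteins TPX2 and KIF15 made up the rest of the 6, at log2 fold changes of 4.16 and 4.50.

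Among the decreases, several genes with the smallest p-values had nearly equal levels in the 3 lymphomas, which the choice by p-value also favours. PSEN2, a catalytic subunit of gamma-secretase, which cleaves Notch receptors, had 469.8, 447 and 453 in the lymphomas and 3152, 2963 and 2927 in the controls (log2 fold change -2.72 ± 0.14, adjusted p = 0.0001). The orphan receptor GPR171 had 117, 114 and 115 in the lymphomas and 1340.3, 1134 and 1394 in the controls (-3.47 ± 0.19, adjusted p = 0.000112). PRAM1, an adaptor protein of blood cells, had 75.6, 77.7 and 77 in the lymphomas and 857, 1201 and 1244 in the controls (-3.80 ± 0.24, adjusted p = 0.00015). For each of these 3 genes the lymphomas lay far below the lowest control. CD38, a surface enzyme of activated lymphocytes that consumes NAD, had 178, 91 and 115 in the lymphomas and 5469, 3155 and 3056 in the controls (-4.92 ± 0.32, adjusted p = 0.000164). STRADA, a pseudokinase partner of the tumour suppressor LKB1, had 434, 573 and 530.0 in the lymphomas and 4392, 3373 and 3190.4 in the controls (-2.83 ± 0.19, adjusted p = 0.000181). The sixth gene was the segment TRBV3-1, and no Boxer lymphoma overlapped a control in any of the 6.

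Genes of cell division rose together. Of 41 listed mitosis and kinetochore genes 38 were found and 37 tested, and each of the 37 was higher (median log2 fold change 3.16). MKI67, the antigen used to count cycling cells, had 3917, 5856 and 5102 in the lymphomas and 506, 594 and 742 in the controls (log2 fold change 3.01 ± 0.22, adjusted p = 0.000188). TOP2A, which untangles sister chromatids, had 9609, 19830.0 and 17342 in the lymphomas and 684, 645 and 708 in the controls (4.45 ± 0.27, adjusted p = 0.00015). UBE2C, which feeds ubiquitin to the anaphase-promoting complex, had 747, 1020.1 and 937 in the lymphomas and 47.8, 52 and 47.2 in the controls (4.16 ± 0.25, adjusted p = 0.000133). Boxer lymphoma 2 was highest for all 3 of these genes, and for each the lowest lymphoma lay far above the highest control.

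DNA replication genes followed, with 24 of 30 tested (33 listed, 30 found) higher and 0 lower, and a median of 2.05. MCM4, a subunit of the replicative helicase, had 10217, 10826 and 11344 in the lymphomas and 2595, 2667 and 2595 in the controls (log2 fold change 2.04 ± 0.14, adjusted p = 0.000188). MCM10, which helps to start forks, had 787, 744 and 881 in the lymphomas and 90.1, 71.8 and 77.8 in the controls (3.32 ± 0.23, adjusted p = 0.000181). UHRF1, which brings maintenance methylation to new DNA, had 3352, 4513 and 3670.2 in the lymphomas and 364, 405 and 567 in the controls (3.12 ± 0.22, adjusted p = 0.000188). Among genes of homologous recombination and Fanconi repair, 17 of 22 tested (23 listed, 22 found) were higher and 1 lower, with a median of 1.46. RAD51AP1 had 324, 428 and 336 in the lymphomas and 28.7, 23.1 and 23.2 in the controls (3.80 ± 0.32, adjusted p = 0.000262). The breast cancer susceptibility gene BRCA2 had 1469, 1535 and 2305 in the lymphomas and 321, 293 and 242 in the controls (2.61 ± 0.23, adjusted p = 0.000314). The 1 lower gene was the damage kinase ATM, with 1706, 1398 and 2207 in the lymphomas and 3218, 2845 and 2683 in the controls (-0.74 ± 0.20, adjusted p = 0.0224). Its adjusted p was 0.0786, 0.0769 and 0.056 without control 1, 2 and 3, and the lower count of this list was 2 without Boxer lymphoma 1.

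Enzymes that supply nucleotides were also higher in part: 13 of 22 tested (28 listed, 22 found) rose and 1 fell, with a median of 0.98. DCK, the kinase that salvages deoxycytidine, had 634, 1208 and 691 in the lymphomas and 84.6, 102 and 111 in the controls (log2 fold change 3.03 ± 0.30, adjusted p = 0.000478). RRM2, a subunit of ribonucleotide reductase, had 663, 1304 and 1606 in the lymphomas and 129.7, 111 and 136 in the controls (3.14 ± 0.34, adjusted p = 0.000627). The exception was CTPS1, the CTP synthase on which lymphocyte expansion depends, which had 6219.6, 7550.1 and 5461 in the lymphomas and 17080.5, 15348 and 16005 in the controls (-1.34 ± 0.18, adjusted p = 0.00152). DCK and RRM2 were thus several times higher, while CTPS1 was lower in every lymphoma than in any control.

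Regulators of the G1 phase moved both ways, with 9 of 20 tested (24 listed, 20 found) higher, 3 lower and a median of 0.67. CCND2, a cyclin that starts the cell cycle, had 10839.5, 23583 and 8984 in the lymphomas and 2342, 2229 and 2547 in the controls (log2 fold change 2.48 ± 0.34, adjusted p = 0.00152). Its partner kinase CDK4 had 3349.8, 3824 and 4389 in the lymphomas and 947, 930.4 and 1038 in the controls (1.98 ± 0.16, adjusted p = 0.000252). E2F3, a transcription factor of S phase entry, had 930.3, 1226 and 925 in the lymphomas and 92.8, 97.4 and 83.3 in the controls (3.47 ± 0.22, adjusted p = 0.000164). Boxer lymphoma 2 had the highest CCND2, and no library overlapped between the groups for these 3 genes. The 3 lower genes were CDKN1B, which encodes the CDK inhibitor p27, RBL2, a pocket protein of resting cells, and MYC. CDKN1B had 1118, 2858 and 3137 in the lymphomas and 17319, 15419.7 and 15306 in the controls (-2.89 ± 0.37, adjusted p = 0.00119). RBL2 had 2599.7, 3095 and 3225 in the lymphomas and 8424, 6777 and 7065 in the controls (-1.32 ± 0.17, adjusted p = 0.00118). MYC, a driver of growth, had 1853, 2122 and 1992 in the lymphomas and 3161, 3363 and 3661 in the controls (-0.77 ± 0.15, adjusted p = 0.00577). CCND3 did not pass the test, at 2315, 1936 and 2050.1 in the lymphomas and 2053, 1702 and 1781 in the controls (0.19 ± 0.16, adjusted p = 0.376). The transcription factor MYB, high in precursor and dividing blood cells, had 7487, 6327 and 4863 in the lymphomas and 651, 303 and 305 in the controls (3.96 ± 0.32, adjusted p = 0.00025).

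**Figure D3:**
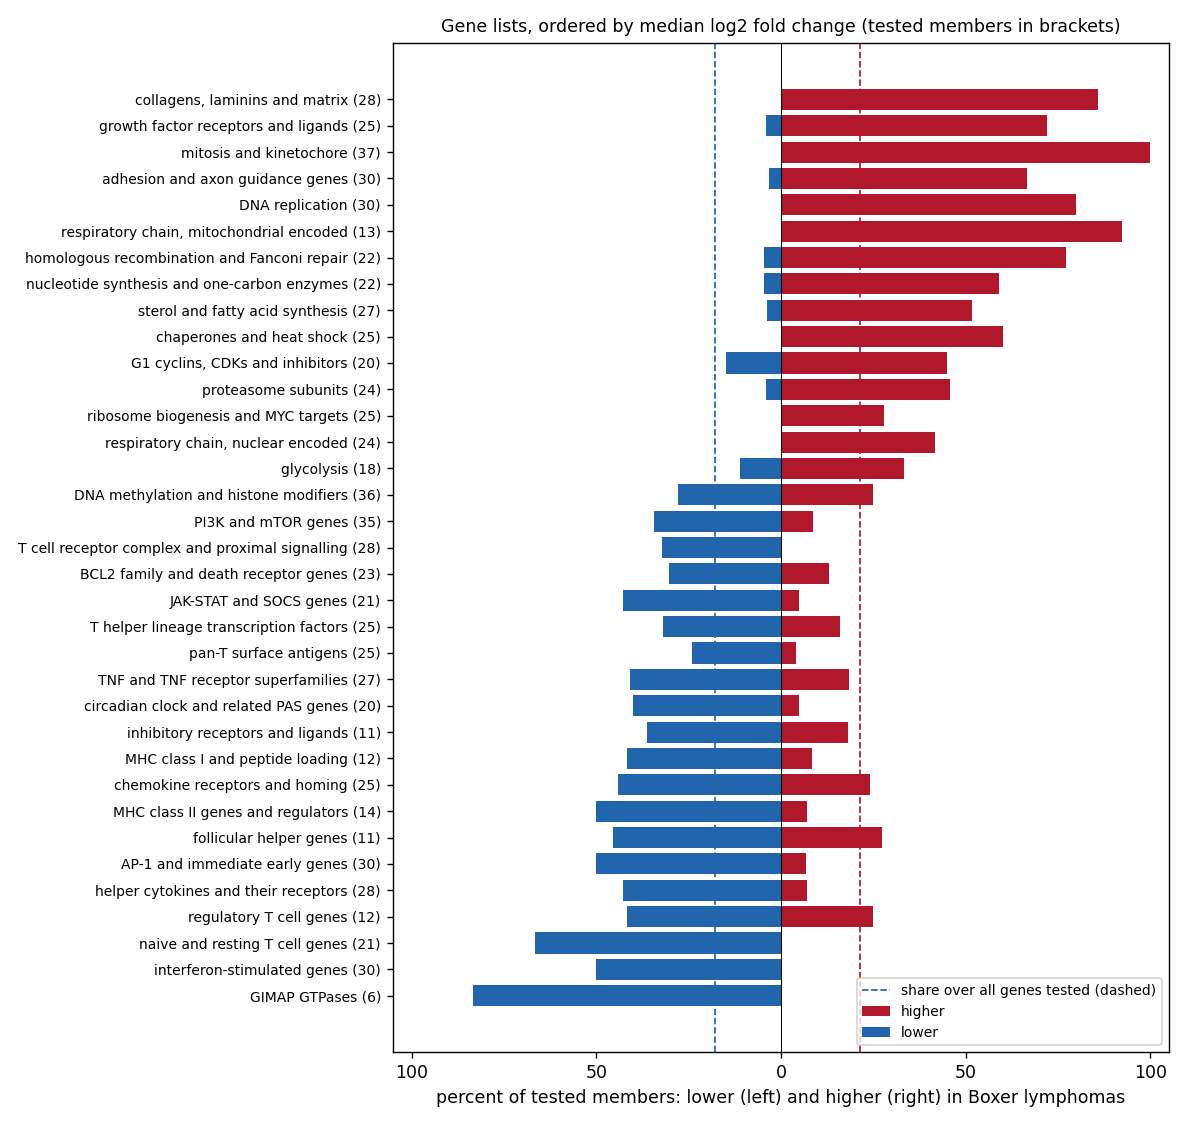
For each of the 35 gene lists, bars give the percent of tested members that were higher (red, right) or lower (blue, left) in the Boxer lymphomas, with the number tested in brackets; dashed lines mark the shares over all genes, 21.5% and 17.9%. Matrix, division and replication lists lie to the right, and GIMAP, naive T cell and interferon lists to the left.

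Components of the T cell receptor and its nearest kinases fell in part. None of 28 tested genes (29 listed, 28 found) rose and 9 fell, with a median of -0.40. TXK, a kinase of the TEC family, had 539, 852 and 848 in the lymphomas and 5970.1, 5224 and 5226 in the controls (log2 fold change -2.90 ± 0.21, adjusted p = 0.000193). DGKA, the lipid kinase that damps receptor signals, had 5098, 4891 and 2901 in the lymphomas and 12613, 14126 and 14508 in the controls (-1.72 ± 0.24, adjusted p = 0.00167). The ubiquitin ligase CBLB, another brake, had 343, 859 and 345 in the lymphomas and 2548, 1903 and 1752 in the controls (-2.13 ± 0.37, adjusted p = 0.00375). A kinase that carries the signal and genes that restrain it were thus both among the 9. CD3E did not pass, at -0.40 (adjusted p = 0.145). Without Boxer lymphoma 1, 2 of the 28 were higher. With the female Boxer lymphoma 2 alone against the controls, 2 were higher and 15 lower.

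Antigens carried by most T cells were mixed, with 1 of 25 tested (28 listed, 25 found) higher, 6 lower and a median of -0.73. The higher count was 4 without Boxer lymphoma 2 and 3 with DESeq2. CD96, a receptor of T and natural killer cells, rose: it had 9270.4, 3805 and 3256 in the lymphomas and 306, 328 and 346 in the controls (log2 fold change 3.89 ± 0.37, adjusted p = 0.000381). The costimulatory receptor CD27 had 320.3, 473 and 602 in the lymphomas and 1342, 1581 and 1437 in the controls (-1.69 ± 0.25, adjusted p = 0.00194). CD5, a pan-T antigen whose loss is looked for in lymphoma, had 3565, 265 and 4097 in the lymphomas and 10272, 10649 and 10582 in the controls, which missed the threshold (-2.74 ± 0.93, adjusted p = 0.0501). Boxer lymphoma 2 stood far below the other lymphomas; without it the log2 fold change was -1.46 (adjusted p = 0.00149), without Boxer lymphoma 1 the adjusted p was 0.0362 and without Boxer lymphoma 3 it was 0.0339. CD6, the neighbour and relative of CD5, chosen after its values were seen, was also lowest in Boxer lymphoma 2, with 3311, 179 and 3054 in the lymphomas and 6849, 8636 and 8123 in the controls (-2.68 ± 1.01, adjusted p = 0.0685; -1.30 and 0.00257 without Boxer lymphoma 2, and -3.40 and 0.0382 without Boxer lymphoma 1). CD7 had 744, 628 and 877 in the lymphomas and 777, 1237 and 1397 in the controls (-0.57 ± 0.26, adjusted p = 0.116; 0.0344 without control 1), and PTPRC, the pan-leukocyte antigen CD45, had 27922, 45599 and 42406 in the lymphomas and 57212, 54046 and 48742 in the controls (-0.49 ± 0.27, adjusted p = 0.187). The neural adhesion molecule NCAM1 (CD56), an antigen of natural killer cells, had 398, 549 and 363 in the lymphomas and 2.73, 0 and 0 in the controls (8.12 ± 0.63, adjusted p = 0.000233).

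Transcription factors of helper lineages moved both ways: 4 of 25 tested (31 listed, 26 found) were higher and 8 lower, with a median of -0.60. Over all genes tested, 21.5% were higher and 17.9% lower. GATA3, the factor of type 2 helper cells and of early T cells, had 9489.6, 10796 and 10912 in the lymphomas and 1939.5, 2315 and 2146 in the controls (log2 fold change 2.29 ± 0.16, adjusted p = 0.000181). TOX2 had 3846, 3823 and 2081 in the lymphomas and 819, 552 and 816 in the controls (2.12 ± 0.29, adjusted p = 0.00143) and IKZF2 had 2810.3, 2338 and 1886 in the lymphomas and 905, 636 and 696 in the controls (1.65 ± 0.21, adjusted p = 0.00124). The fourth, the chromatin organiser SATB1, had 14307, 25323 and 15434 in the lymphomas and 10211, 10281 and 9371 in the controls (0.84 ± 0.25, adjusted p = 0.0313; 0.0825, 0.0981 and 0.104 without control 1, 2 and 3). FOXP3, which defines regulatory T cells, had 72.2, 108 and 71.8 in the lymphomas and 730.2, 629 and 629.7 in the controls (-2.99 ± 0.26, adjusted p = 0.000301). RORA had 26.3, 53.1 and 66.6 in the lymphomas and 718, 570.5 and 502 in the controls (-3.67 ± 0.39, adjusted p = 0.000596). TBX21, the factor of type 1 helper cells, had 13.6, 16.1 and 19.8 in the lymphomas and 138, 111 and 63.9 in the controls (-2.54 ± 0.46, adjusted p = 0.00445). Each lymphoma had more GATA3 and less FOXP3, RORA and TBX21 than any control. PRDM1, a factor of late effector cells, was -3.09 on the log2 scale (adjusted p = 0.0135; 0.0596 without control 1). Without control 1 the lower count was 4 in place of 8.

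Cytokines and cytokine receptors of helper cells were more often lower than higher, with 2 of 28 tested (39 listed, 33 found) higher, 12 lower and a median of -1.40. IL2RA, the inducible chain of the IL-2 receptor, had 96, 135 and 124 in the lymphomas and 1829, 1130.2 and 1147 in the controls (log2 fold change -3.50 ± 0.27, adjusted p = 0.000218). IL2RB, its signalling chain, had 398, 259.8 and 528 in the lymphomas and 2769, 2139 and 2337 in the controls (-2.66 ± 0.27, adjusted p = 0.000498). IL10RA had 87.5, 88.2 and 66.6 in the lymphomas and 813, 735 and 688 in the controls (-3.20 ± 0.24, adjusted p = 0.0002). For these receptor chains the highest lymphoma lay below the lowest control by a wide gap. IL7R, the survival receptor of resting T cells, had 3914, 894 and 2033 in the lymphomas and 9116, 7174 and 7486 in the controls (-2.03 ± 0.47, adjusted p = 0.0121; 0.0517 without control 1). The 2 higher genes were TGFB1 (0.66 ± 0.20, adjusted p = 0.0316; above 0.05 without any 1 control or without Boxer lymphoma 2 or 3) and IL9R, a receptor for the growth factor IL-9. IL9R had 1422, 60.7 and 899 in the lymphomas and 25.9, 73.5 and 42.6 in the controls (3.27 ± 1.09, adjusted p = 0.047). Its groups overlapped: Boxer lymphoma 2 was at control level, and the adjusted p rose above 0.05 without any single library except Boxer lymphoma 2.

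Of the follicular helper cell genes 3 of 11 tested (14 listed, 12 found) were higher and 5 lower, with a median of -1.07. Over all genes tested, 21.5% were higher and 17.9% lower. CXCR5, which brings these cells to B cell follicles, had 48.4, 61.6 and 12.5 in the lymphomas and 883, 759.5 and 1118 in the controls (log2 fold change -4.71 ± 0.56, adjusted p = 0.0009), whereas the follicular chemokine CXCL13 had 314, 163 and 514 in the lymphomas and 35.5, 13.2 and 19.4 in the controls (3.77 ± 0.55, adjusted p = 0.00185). The receptor and its ligand thus moved in opposite directions. The signalling adaptor SH2D1A had 13019, 12213 and 5310.1 in the lymphomas and 4199.8, 3707 and 3887 in the controls (1.27 ± 0.33, adjusted p = 0.0201). Its adjusted p was 0.0585, 0.0723 and 0.0657 without control 1, 2 and 3, and 0.0539 without Boxer lymphoma 2. With all 9 libraries in the fit the higher count was 1. Of the regulatory T cell list, 3 of 12 tested (15 listed, 13 found) were higher and 5 lower, with a median of -1.60. Without control 2 the lower count was 3. The higher counts of the follicular helper and regulatory lists were near the share over all genes. LAYN, the hyaluronan receptor layilin, had 370.4, 1797 and 842 in the lymphomas and 12.3, 7.43 and 16.7 in the controls (6.04 ± 0.60, adjusted p = 0.000472). TNFRSF18 (GITR) had 596, 681 and 1270.3 in the lymphomas and 253, 237 and 229 in the controls (1.74 ± 0.30, adjusted p = 0.00371). IKZF4 had 135, 138 and 129 in the lymphomas and 505, 436 and 437 in the controls (-1.76 ± 0.22, adjusted p = 0.00102). LAYN and TNFRSF18 rose in the same samples in which FOXP3 and IKZF4 fell.

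Inhibitory receptors and ligands were higher in 2 and lower in 4 of 11 tested (15 listed, 11 found), with a median of -0.91. LAG3, a receptor for MHC class II, had 14.4, 30.3 and 9.37 in the lymphomas and 261, 252 and 220.4 in the controls (log2 fold change -3.84 ± 0.48, adjusted p = 0.00105). BTLA had 1135, 606 and 889 in the lymphomas and 2281, 1852 and 1901 in the controls (-1.24 ± 0.25, adjusted p = 0.00651). PDCD1LG2, a ligand of PD-1, had 34, 27.5 and 29.2 in the lymphomas and no read in any control, at least 30.6-fold higher. PD-1 itself was far below the controls in the samples in which this ligand was read. TIGIT had 645, 28.4 and 17.7 in the lymphomas and 1217, 676 and 1347 in the controls (-3.87 ± 1.20, adjusted p = 0.0357), with Boxer lymphoma 1 close to the controls. The adjusted p was 0.188 with edgeR and 0.0722 to 0.11 without any 1 library other than Boxer lymphoma 1.

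Of the genes of naive and resting T cells most were lower. Of 21 tested (24 listed, 22 found) 14 fell and 0 rose, with a median of -1.75. Without control 1 the lower count was 9, and without Boxer lymphoma 1 the higher count was 1. TSC22D3, a glucocorticoid-induced factor of quiescent cells, had 1141, 906 and 1927 in the lymphomas and 10507, 10278 and 8484 in the controls (log2 fold change -2.95 ± 0.28, adjusted p = 0.000381). FOXO1, which maintains naive cells, had 435, 508 and 395 in the lymphomas and 1538, 1614 and 1348 in the controls (-1.75 ± 0.18, adjusted p = 0.000491). S1PR1, the receptor by which T cells leave lymph nodes, had 121, 479 and 258 in the lymphomas and 2125, 2223 and 2384 in the controls (-3.18 ± 0.44, adjusted p = 0.00156). CCR7, by which they enter, had 7524, 7049 and 11061 in the lymphomas and 20734, 18291 and 19079 in the controls (-1.21 ± 0.22, adjusted p = 0.00457). Both receptors of lymph node traffic were lower in every lymphoma than in any control. GIMAP GTPases, which keep resting lymphocytes alive, were lower in 5 of 6 tested (7 listed, 6 found), with a median of -3.59. GIMAP7 had 56.9, 163 and 99.96 in the lymphomas and 2949.6, 2871 and 2938 in the controls (-4.89 ± 0.35, adjusted p = 0.000188), GIMAP4 had 128, 272 and 301 in the lymphomas and 4138, 3309.8 and 3266 in the controls (-4.01 ± 0.33, adjusted p = 0.000247), GIMAP8 had 98.5, 183 and 354 in the lymphomas and 2874, 2814 and 2632 in the controls (-3.89 ± 0.41, adjusted p = 0.000591) and GIMAP1 had 28.9, 84.4 and 57.3 in the lymphomas and 355, 485 and 807 in the controls (-3.29 ± 0.47, adjusted p = 0.00177). Boxer lymphoma 1 was the lowest library for all 4. GIMAP6 had 429.9, 2553 and 1853 in the lymphomas and 5401, 5422 and 6672 in the controls (-2.19 ± 0.59, adjusted p = 0.0215). Its adjusted p was 0.0659, 0.0595 and 0.0734 without control 1, 2 and 3, and its log2 fold change was -1.42 without Boxer lymphoma 1. GIMAP2 did not pass (-2.18 ± 0.80, adjusted p = 0.0634), but passed without any 1 Boxer lymphoma, at adjusted p-values of 0.00385, 0.0463 and 0.0436 without Boxer lymphoma 1, 2 and 3.

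Chemokine receptors and homing molecules moved both ways, with 6 of 25 tested (27 listed, 26 found) higher, 11 lower and a median of -0.96. The shares over all genes were 21.5% higher and 17.9% lower. Beside CCR9, CCR4, a receptor of type 2 helper and skin-homing cells, was higher with 1559.8, 1018 and 1092 in the lymphomas and 222, 102 and 223 in the controls (log2 fold change 2.80 ± 0.35, adjusted p = 0.00102). The integrin chain ITGAL, a chain of LFA-1, had 5548, 4186 and 7307 in the lymphomas and 2320.3, 2237 and 2559 in the controls (1.22 ± 0.22, adjusted p = 0.00432). CCR6, found on type 17 helper cells, had 30.6, 73 and 39.6 in the lymphomas and 688, 480.5 and 487 in the controls (-3.58 ± 0.38, adjusted p = 0.000604). GPR183, an oxysterol receptor that positions cells in lymphoid tissue, had 133, 228 and 52.1 in the lymphomas and 1521, 1522 and 1217 in the controls (-3.59 ± 0.48, adjusted p = 0.00142). The integrin chains ITGA1 and ITGAE, which hold T cells in tissue, had log2 fold changes of -3.02 and -2.05. The lymphomas thus had more CCR9 and CCR4 and less CCR6 than the controls, without overlap. The lower count was 7 without control 1 and 6 without control 2.

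Immediate early genes were more often lower than higher, and the controls differed among themselves. Of 30 tested AP-1 and immediate early genes (33 listed, 31 found) 2 rose and 15 fell, with a median of -1.12. FOS had 1319, 1763 and 1917 in the lymphomas and 38620.1, 42460.5 and 7754 in the controls (log2 fold change -3.83 ± 0.60, adjusted p = 0.00258) and FOSB had 364, 272 and 199.9 in the lymphomas and 10298, 15012 and 2484 in the controls (-4.74 ± 0.61, adjusted p = 0.0012). Control 3 was lowest among the controls for both. JUNB had 647, 862 and 906 in the lymphomas and 7279, 9933 and 3899.8 in the controls (-3.04 ± 0.33, adjusted p = 0.000679). FOSL2, a member of the same family, rose, with 115, 149.8 and 267 in the lymphomas and 27.3, 41.3 and 32.4 in the controls (2.29 ± 0.43, adjusted p = 0.00519). The members of 1 family thus moved in both directions. With Boxer lymphoma 2 alone against the controls 7 genes of the list were lower.

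Genes of cytokine signalling through JAK and STAT were lower in 9 and higher in 1 of 21 tested (27 listed, 22 found), with a median of -0.51. CISH, a feedback inhibitor that STAT5 induces, had 108, 129.9 and 98.9 in the lymphomas and 505, 577 and 455 in the controls (log2 fold change -2.18 ± 0.24, adjusted p = 0.000681). PIM2, a survival kinase, had 341, 533 and 269 in the lymphomas and 1365, 1688 and 2012 in the controls (-2.19 ± 0.28, adjusted p = 0.0012). STAT5B had 2279, 1384 and 1459 in the lymphomas and 4969.6, 4580.4 and 4439.7 in the controls (-1.49 ± 0.22, adjusted p = 0.00185) and TYK2 had 1151, 1432 and 1279 in the lymphomas and 2748, 2850.0 and 3071 in the controls (-1.17 ± 0.16, adjusted p = 0.00134). A kinase, a STAT and a gene that STAT5 induces were thus lower in the same lymphomas. The higher gene was SOCS6 (1.89 ± 0.41, adjusted p = 0.00891).

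Genes around PI3K and mTOR were higher in 3 and lower in 12 of 35 tested (37 listed, 36 found), with a median of -0.23. SESN1, a stress protein that restrains mTORC1, had 407, 400.1 and 343 in the lymphomas and 4289, 2472 and 2462 in the controls (log2 fold change -2.95 ± 0.25, adjusted p = 0.000261). PIK3R5, a regulatory subunit of PI3K gamma, had 1154, 1505 and 1185 in the lymphomas and 3760.3, 4152 and 3999.8 in the controls (-1.64 ± 0.16, adjusted p = 0.000478). SESN2, a relative of SESN1, had 1336, 1031 and 1446 in the lymphomas and 575, 633 and 577 in the controls (1.08 ± 0.19, adjusted p = 0.00363). The 2 sestrins moved in opposite directions. The lower count was 7 without control 1 and 7 without control 2. The higher count was 1 without either of them and 5 without Boxer lymphoma 2.

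Death receptor and BCL2 family genes were lower in 7 and higher in 3 of 23 tested (29 listed, 24 found), with a median of -0.46. FAS, the death receptor that removes stimulated T cells, had 39.1, 73 and 21.9 in the lymphomas and 924, 812 and 838 in the controls (log2 fold change -4.39 ± 0.43, adjusted p = 0.000416). MCL1, a survival protein, had 2093, 3617 and 3664 in the lymphomas and 8385, 7419 and 7566 in the controls (-1.36 ± 0.24, adjusted p = 0.00406). CFLAR, which blocks caspase 8, had 1016, 825 and 679.9 in the lymphomas and 2398, 1795 and 1611 in the controls (-1.20 ± 0.22, adjusted p = 0.00494). A death receptor and 2 survival genes were thus lower at once. APAF1, the core of the apoptosome, rose, with 1904, 2324 and 1587 in the lymphomas and 934, 1049 and 891 in the controls (1.00 ± 0.19, adjusted p = 0.00514). BCL2 had 5599, 307 and 3318 in the lymphomas and 4162, 2228 and 2228 in the controls (-0.62 ± 0.96, adjusted p = 0.636): Boxer lymphoma 2 had the lowest value of the 6 and Boxer lymphoma 1 the highest, and without Boxer lymphoma 2 the log2 fold change was 0.65 (adjusted p = 0.189). Without control 1 or 2 the lower count was 4. The higher count was 1 without any 1 control or without Boxer lymphoma 2 or 3.

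Growth factor receptors and ligands were higher in 18 and lower in 1 of 25 tested genes (32 listed, 31 found), with a median of 3.87. CSF1R, the receptor that defines monocytes and macrophages, had 1246, 447 and 685 in the lymphomas and 2.73, 9.08 and 13 in the controls (log2 fold change 6.49 ± 0.61, adjusted p = 0.000379). PDGFRB, a receptor of pericytes and fibroblasts, had 66.3, 215 and 343 in the lymphomas and 0, 0 and 1.85 in the controls (6.91 ± 0.77, adjusted p = 0.000723). IGF1 had 66.3, 227 and 177 in the lymphomas and 0, 0.826 and 0 in the controls (6.84 ± 0.65, adjusted p = 0.000381). Each was at 0 or near it in the controls, and the filter set the direction of PDGFRB and IGF1. KIT, the receptor of stem cell factor and a drug target in dogs, had 1595, 314 and 136 in the lymphomas and 47.8, 19.8 and 6.48 in the controls (4.38 ± 0.99, adjusted p = 0.0107), with Boxer lymphoma 1 highest. PDGFRA had 41.6, 85.3 and 356 in the lymphomas and 21.8, 0 and 1.85 in the controls (4.77 ± 1.24, adjusted p = 0.0189). Its adjusted p was 0.0604, 0.0661 and 0.0576 without control 2, control 3 and Boxer lymphoma 3. CSF1R, PDGFRA, PDGFRB and KIT also stand in the marker lists given below, and the higher count was 9 under a filter of 50 normalised reads and 8 with Boxer lymphoma 2 alone. Without control 2 or control 3 none was lower.

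In the TNF and TNF receptor superfamilies 5 of 27 tested genes (32 listed, 28 found) were higher and 11 lower, with a median of -0.78. Over all genes tested, 21.5% were higher and 17.9% lower. TNFSF8 had 130.0, 320.4 and 53.1 in the lymphomas and 1785, 1186 and 1087 in the controls (log2 fold change -3.33 ± 0.59, adjusted p = 0.00399) and its receptor TNFRSF8 (CD30), a diagnostic antigen of some T cell lymphomas, had 11, 19.9 and 7.29 in the lymphomas and 120.1, 71 and 128 in the controls (-3.02 ± 0.52, adjusted p = 0.00359). LTBR, the lymphotoxin receptor of stromal and myeloid cells, had 56.9, 60.7 and 83.3 in the lymphomas and 5.46, 2.48 and 6.48 in the controls (3.60 ± 0.52, adjusted p = 0.00184). Ligand and receptor of the CD30 pair were thus both lower in all 3 lymphomas. The higher count was 3 without control 1, control 2 or Boxer lymphoma 1.

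Antigen presentation genes were more often lower than higher. In the MHC class I list 5 of 12 tested genes (17 listed, 12 found) fell and 1 rose, with a median of -0.92. DLA-64, a dog class I gene, had 3543, 9792 and 3922 in the lymphomas and 19491, 19515 and 23575 in the controls (log2 fold change -2.01 ± 0.38, adjusted p = 0.00504). TAPBPL, a peptide editor, had 509, 1234 and 835 in the lymphomas and 2587, 3253 and 3628 in the controls (-1.95 ± 0.32, adjusted p = 0.0029). CALR, the chaperone calreticulin, was the 1 that rose, with 7005, 9823 and 6784 in the lymphomas and 3112, 3447 and 3369 in the controls (1.23 ± 0.19, adjusted p = 0.00235). The lower count was 2 without any 1 control, 3 without Boxer lymphoma 3 and 9 without Boxer lymphoma 2, the lymphoma with the highest DLA-64. Without Boxer lymphoma 3, 2 rose. In the class II list 7 of 14 tested (20 listed, 15 found) fell and 1 rose, with a median of -1.03. CIITA, the master regulator of class II, had 172, 192 and 184 in the lymphomas and 422, 675 and 822 in the controls (-1.75 ± 0.28, adjusted p = 0.00281). DLA-DQB1 had 693, 1764 and 1408 in the lymphomas and 4682, 5832 and 4669 in the controls (-2.07 ± 0.33, adjusted p = 0.00275). DLA-DOA, which holds back peptide loading, rose, with 845, 1885 and 1335 in the lymphomas and 551, 407 and 431 in the controls (1.48 ± 0.30, adjusted p = 0.00706). The regulator and a surface chain thus fell where the loading inhibitor rose. MHC genes have near-identical copies that can share reads.

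Interferon-stimulated genes fell in 15 and rose in 0 of 30 tested (40 listed, 31 found), with a median of -1.77. TRIM22, an antiviral ubiquitin ligase, had 441, 997 and 1359 in the lymphomas and 25198, 20733 and 33369 in the controls (log2 fold change -4.94 ± 0.40, adjusted p = 0.000248). OAS3 had 593, 637 and 1036 in the lymphomas and 2778, 2278 and 2287 in the controls (-1.73 ± 0.24, adjusted p = 0.00154), GBP5 had 20.4, 110.0 and 53.1 in the lymphomas and 835, 689 and 675 in the controls (-3.86 ± 0.55, adjusted p = 0.00175) and DTX3L had 590.4, 1808 and 905 in the lymphomas and 7992, 5507 and 4916 in the controls (-2.60 ± 0.40, adjusted p = 0.00222). Boxer lymphoma 1 was lowest of all libraries for each of the 4, and no lymphoma reached a control. With Boxer lymphoma 2 alone the lower count was 9. Without Boxer lymphoma 1, 1 gene was higher.

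Fewer genes of ribosome biogenesis and glycolysis passed the test. For ribosome biogenesis and MYC targets 7 of 25 tested (29 listed, 26 found) rose and 0 fell, with a median of 0.62. Without Boxer lymphoma 1 the higher count was 11. The shares over all genes were 21.5% higher and 17.9% lower. PA2G4, a growth regulator, had 2930.1, 3458 and 3309 in the lymphomas and 1729, 1622 and 1636 in the controls (log2 fold change 0.96 ± 0.15, adjusted p = 0.00233). The nucleolar protein NOP56 had 3708, 4806 and 3414 in the lymphomas and 2146, 2125 and 2048 in the controls (0.90 ± 0.17, adjusted p = 0.00578). PA2G4 and NOP56 rose although MYC fell in the same lymphomas. In glycolysis 6 of 18 tested (25 listed, 19 found) rose and 2 fell, with a median of 0.41. PFKP, the platelet form of phosphofructokinase, had 1689, 2545 and 3305 in the lymphomas and 322, 411 and 406 in the controls (2.68 ± 0.26, adjusted p = 0.000449). PFKL, the liver form, had 625, 310.0 and 255 in the lymphomas and 929.5, 902 and 1227 in the controls (-1.46 ± 0.34, adjusted p = 0.0125; 0.0555 without control 3). GAPDH had 14620.1, 14615 and 11465 in the lymphomas and 4190.3, 3139.7 and 3231 in the controls (1.95 ± 0.19, adjusted p = 0.000466). SLC2A3, a glucose transporter, had 273, 259 and 661 in the lymphomas and 2002, 2098 and 1763 in the controls (-2.43 ± 0.35, adjusted p = 0.00184). Forms of the same enzyme thus moved in opposite directions.

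Mitochondrially encoded genes took 6.76, 9.20 and 9.78% of reads in the Boxer lymphomas and 3.45, 3.11 and 2.80% in the controls, a mean of 8.58 ± 1.60% against 3.12 ± 0.32% (SD, n = 3 each; exact permutation test, two-sided p = 0.1, the smallest p that 3 against 3 can give). The 62 ribosomal protein features took 3.20 ± 1.00% of reads in the lymphomas and 6.19 ± 0.23% in the controls (SD, n = 3 each; the same exact p of 0.1). No lymphoma overlapped a control in either share, and both p-values were 0.1 after Benjamini-Hochberg adjustment over the 2 shares. Of 13 mitochondrially encoded genes found and tested 12 were higher and 0 lower, with a median of 1.78. CYTB, a subunit of complex III, had 58589, 108583 and 88016 in the lymphomas and 20539, 22599.9 and 19584 in the controls (log2 fold change 1.98 ± 0.29, adjusted p = 0.00182). Nuclear genes of the respiratory chain were higher in 10 and lower in 0 of 24 tested (37 listed, 24 found), with a median of 0.45, and the higher count was 5 without control 2 or control 3. Without Boxer lymphoma 3 the lower count was 1. NDUFA8, a subunit of complex I, had 1024, 1083 and 1048 in the lymphomas and 367, 322 and 312 in the controls (1.66 ± 0.17, adjusted p = 0.000519).

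Chaperones were higher in 15 and lower in 0 of 25 tested genes (30 listed, 26 found), with a median of 0.90. CCT2, a subunit of the chaperonin that folds actin and tubulin, had 4659, 5164 and 5328 in the lymphomas and 1598, 1633 and 1646 in the controls (log2 fold change 1.63 ± 0.14, adjusted p = 0.0003). HSPH1 had 4277, 3312 and 3705 in the lymphomas and 661, 960.2 and 431 in the controls (2.53 ± 0.29, adjusted p = 0.000769). Proteasome subunits were higher in 11 and lower in 1 of 24 tested (28 listed, 26 found), with a median of 0.64. PSMA5 had 2165, 1758 and 2472 in the lymphomas and 493, 552 and 695 in the controls (1.88 ± 0.21, adjusted p = 0.000662). The 1 lower gene, PSME1, an activator induced by interferon, had 1087, 1826 and 1422 in the lymphomas and 2342, 2395 and 2159.6 in the controls (-0.70 ± 0.21, adjusted p = 0.0322). PSME1 lost its call without any single library other than Boxer lymphoma 2 (adjusted p of 0.0515 to 0.114). The higher count of the proteasome list was 6, 4 and 5 without control 1, 2 and 3, and 20 without Boxer lymphoma 1.

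Sterol and fatty acid synthesis genes were higher in 14 and lower in 1 of 27 tested (30 listed, 28 found), with a median of 0.95. DHCR7, the last enzyme of cholesterol synthesis, had 743, 781 and 794 in the lymphomas and 56, 87.5 and 68.5 in the controls (log2 fold change 3.46 ± 0.25, adjusted p = 0.000193). ACLY, which makes acetyl-CoA for lipids, had 3446, 3076 and 2525 in the lymphomas and 1187, 1099.7 and 1229 in the controls (1.35 ± 0.17, adjusted p = 0.00107). Both enzymes rose without overlap, and the 1 gene that fell was SULT2B1. The higher count was 7, 8 and 9 without control 1, 2 and 3, and the lower count was 2 without Boxer lymphoma 3. Of the circadian clock list 1 of 20 tested (21 listed, 21 found) rose and 8 fell, with a median of -0.84. ARNTL, the core activator BMAL1, had 111, 90.1 and 152 in the lymphomas and 687, 519 and 569 in the controls (-2.34 ± 0.27, adjusted p = 0.00084). CRY2, a repressor, had 296, 210.5 and 206 in the lymphomas and 835, 696 and 668 in the controls (-1.63 ± 0.23, adjusted p = 0.00157). Activator and repressor genes thus fell alike. The lower count was 5 without control 2 or control 3.

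Chromatin genes showed no common direction, with 9 of 36 tested (38 listed, 36 found) higher, 10 lower and a median of 0.07. The shares over all genes were 21.5% higher and 17.9% lower. EZH2, the methyltransferase of polycomb complex PRC2, had 793, 2571 and 1331 in the lymphomas and 334, 349 and 321 in the controls (log2 fold change 2.06 ± 0.39, adjusted p = 0.00528). EED, its partner, had 538, 456 and 457 in the lymphomas and 917, 793 and 733 in the controls (-0.75 ± 0.18, adjusted p = 0.0147; 0.0537 without control 1 and 0.0657 without control 2). WHSC1, a histone methyltransferase also called NSD2, had 3546, 3564 and 3697 in the lymphomas and 1179, 1077 and 1034 in the controls (1.72 ± 0.14, adjusted p = 0.000261). HDAC4, a histone deacetylase, had 40.8, 33.2 and 31.2 in the lymphomas and 343, 391 and 297 in the controls (-3.26 ± 0.31, adjusted p = 0.000379). Partners within 1 complex were thus not changed in the same way. The lower count was 5 without control 1 and 3 without control 2.

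Matrix genes had the highest median of the 35 lists: 24 of 28 tested (34 listed, 29 found) rose and 0 fell, with a median of 6.21. MMP14, a membrane protease that activates MMP2, had 2143, 3069 and 2976 in the lymphomas and 72.3, 104 and 107 in the controls (log2 fold change 4.84 ± 0.24, adjusted p = 0.0001). LAMA4, a laminin of vessel walls, had 466, 521 and 1414 in the lymphomas and 4.09, 2.48 and 2.78 in the controls (7.43 ± 0.52, adjusted p = 0.000188). MMP2 had 273, 173 and 629 in the lymphomas and no read in any control, at least 349.5-fold higher. Boxer lymphoma 3 was highest for both LAMA4 and MMP2, whereas MMP14 was similar in the 3 lymphomas. Adhesion and axon guidance genes rose in 20 and fell in 1 of 30 tested (45 listed, 42 found), with a median of 2.54. EPHB2, a guidance receptor, had 345, 112 and 188 in the lymphomas and no read in any control, at least 223-fold higher, and PLXND1, a semaphorin receptor, had 671, 391 and 574 in the lymphomas and 1.36, 4.95 and 5.56 in the controls (6.88 ± 0.52, adjusted p = 0.000218). The 1 lower gene was SEMA4D, a semaphorin made by T cells, with 1881, 2355 and 2153 in the lymphomas and 3700.3, 4603 and 5106 in the controls (-1.06 ± 0.18, adjusted p = 0.00354). A semaphorin and a semaphorin receptor thus moved in opposite directions. Without Boxer lymphoma 3, 2 of the 30 were lower.

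Markers of other cell types moved with these lists. Monocyte and macrophage markers summed to 11237 to 17352 normalised reads in the Boxer lymphomas and 1181 to 1771 in the controls, and 12 of 12 tested (18 listed, 17 found) rose. Found markers that missed the filter are not in such counts. Markers under 10 normalised reads in every control could be tested only where all 3 lymphomas lay above the controls. APOE had 4539, 2237 and 2821 in the lymphomas and 16.4, 7.43 and 16.7 in the controls (log2 fold change 7.80 ± 0.40, adjusted p = 0.0001) and the lysozyme gene LYZ had 5736, 2715 and 7903 in the lymphomas and 84.6, 133 and 69.5 in the controls (5.74 ± 0.41, adjusted p = 0.000188). FCER1G and VSIG4 had no read in any control. CTSD made up most of each control sum, with 842, 1074 and 1435 in the controls and 3873, 4746 and 4356 in the lymphomas. The dendritic cell markers summed to 4073 to 5461 against 437 to 718, with 10 of 12 tested (15 listed, 13 found) higher, among them CD83 with 916, 808 and 689 in the lymphomas and 84.6, 93.3 and 126 in the controls (2.99 ± 0.25, adjusted p = 0.000265). The count was 5 under a filter of 50 normalised reads. FSCN1 (2042, 3026 and 2562 in the lymphomas) and CD83 made up most of each lymphoma sum. CLEC9A and CD1E, also higher, had only 14.4, 43.6 and 55.2 and 29.7, 28.4 and 58.3 in the lymphomas. Endothelial markers summed to 2110.3 to 5614 against 714 to 1063, and 10 of 13 tested (14 listed, 13 found) rose, including VWF with 673, 1244 and 1136 in the lymphomas and 12.3, 0.826 and 4.63 in the controls (7.58 ± 0.71, adjusted p = 0.000379). This count was 5 under the same filter and 6 with all 9 libraries in the fit. Fibroblast markers summed to 3464 to 12759 against 2371 to 2842, with 10 of 12 tested (15 listed, 14 found) higher and 1, THY1, lower. THY1, which is also in the pan-T list, made up nearly all of the control sums. It had 815, 1016 and 942 in the lymphomas and 2304, 2810 and 2484 in the controls. POSTN and LUM had no read in any control. Boxer lymphoma 3 had the highest sums of both stromal lists, as it did for LAMA4 and MMP2. The part of these cell types in the matrix, growth factor and adhesion results was not tested.

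Markers of other lymphocytes and blood cells differed by list. The neutrophil, cytotoxic and erythroid sums of the lymphomas lay above those of the controls without overlap, and the other lymphocyte and precursor sums overlapped. B cell markers summed to 882 to 2158 in the Boxer lymphomas and 1948 to 2232 in the controls, with 1 of 12 tested (13 listed, 12 found) higher and 1 lower. Plasma cell markers summed to 1418 to 5827 against 2995 to 3885, with 1 of 7 tested (8 listed, 7 found) higher and 2 lower. The 2 lower genes, IRF4 and PRDM1, made up most of each control sum, and JCHAIN made up most of each lymphoma sum. JCHAIN had 906, 5205 and 1201 in the lymphomas and 869, 736 and 692 in the controls. It lay above every control, as did TNFRSF17, but neither passed (adjusted p = 0.134 and 0.211). Neutrophil markers summed to 179 to 319 against 23.1 to 38.9, and 1 of the 2 tested (11 listed, 8 found), MPO, rose. ELANE had no read in the controls. Cytotoxic and killer cell markers summed to 5423 to 10226 against 2245 to 2985, with 2 of 12 tested (18 listed, 15 found) higher and 1 lower. CTSW, a protease of killer cells, had 6435, 3262 and 5068 in the lymphomas and 1301, 1106 and 1402 in the controls (log2 fold change 1.91 ± 0.26, adjusted p = 0.00143). It made up most of the sum in Boxer lymphomas 1 and 3, and KLRB1 (6050) made up most of it in Boxer lymphoma 2. The rest of the list summed to less in each lymphoma than in any control. The activating receptor NCR3 had 94.3, 93.9 and 93.7 in the lymphomas and 437, 499 and 717 in the controls (-2.51 ± 0.27, adjusted p = 0.000603). GZMA had no read in the controls and 5.1, 43.6 and 2.08 in the Boxer lymphomas. Thymocyte and precursor markers summed to 3353, 3447 and 930.0 in Boxer lymphomas 1, 2 and 3 and 854 to 1085 in the controls, with 4 of 6 tested (13 listed, 12 found) higher and 1 lower. RAG1 and LYL1 had no read in any of the 6 libraries, and PTCRA none in the controls. Erythroid and platelet markers summed to 342 to 452 against 186 to 223, with 1 of 2 tested (12 listed, 8 found) higher. Most of each sum was ALAS2, with 415, 320 and 356 in the lymphomas and 146, 162 and 206 in the controls. SLC4A1 had no read in the 6 libraries and HBM none in the controls. Of the epithelial list (9 listed, 7 found) 0 of 2 tested passed: CDH1 had 3894, 5494 and 361 in the lymphomas and 356, 497 and 595 in the controls (2.06 ± 0.91, adjusted p = 0.11; 0.000989 without Boxer lymphoma 3), EPCAM had 384, 156 and 15.6 in the lymphomas and 45, 20.6 and 17.6 in the controls (1.92 ± 1.08, adjusted p = 0.191; 0.00897 without Boxer lymphoma 3), and CLDN3 and CLDN4 had no read in the controls. The summed epithelial markers were 4326 and 5663 in Boxer lymphomas 1 and 2, most of it CDH1, and 394 in Boxer lymphoma 3, below the controls at 403 to 614. The counts of several of these lists rested on 1 library. For B cells the higher count was 0 without control 2, control 3, Boxer lymphoma 2 or Boxer lymphoma 3, and the lower count 0 without any 1 control and 2 without Boxer lymphoma 1 or 2. The lower plasma cell count was 0 without control 1, and the higher one 2 without Boxer lymphoma 1. The cytotoxic list had 1 higher without control 2 or control 3 and 3 lower without Boxer lymphoma 2. The neutrophil list had 2 higher without control 3, the erythroid list 0 higher without control 2, the thymocyte list 0 lower without any 1 control, and the epithelial list 2 higher without Boxer lymphoma 3.

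**Figure D4:**
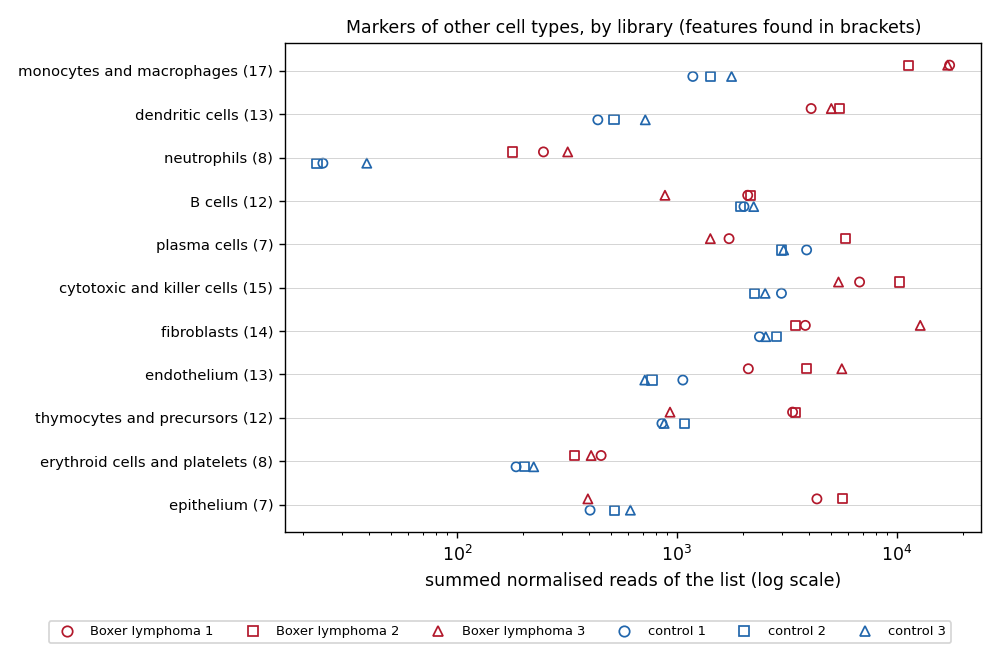
Summed normalised reads (log scale, x axis) of each marker list in each library, with the number of features found in brackets; red symbols are Boxer lymphomas and blue symbols controls. The macrophage, dendritic cell, neutrophil and endothelial sums of all 3 lymphomas lie to the right of all controls, and the B cell sums overlap.

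The variable segments of the T cell receptor separated the lymphomas from each other. A clonal T cell population shares its rearrangements of each chain, so its reads fall mostly on 1 or a few V segments. Only segments with a symbol are seen here: 5 TRAV and 6 TRBV features. In Boxer lymphoma 2, TRBV16 took 24426 of 24465 TRBV reads (99.8%; exact binomial 95% interval 99.8 to 99.9%), and TRAV34 took 1456 of 1464 TRAV reads (99.5%; 98.9 to 99.8%). Boxer lymphoma 1 had 13 TRAV and 50 TRBV reads in all, and Boxer lymphoma 3 had 0 and 53. The named segments thus had few reads in those 2 lymphomas, and segments without a symbol were not seen. In the controls TRBV16 also led, with 56.0, 45.1 and 40.7% of 3146, 4616 and 3887 TRBV reads, and the leading TRAV segment held 29.2, 28.1 and 25.1%. The intervals cover counting error only.

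The constant region of the alpha chain was present in every library: TRAC had 17231, 19522 and 7209 in the lymphomas and 15025, 15244 and 12347 in the controls (log2 fold change -0.07 ± 0.37, adjusted p = 0.891), lowest in Boxer lymphoma 3. TRDC, the constant region of the delta chain of gamma-delta T cells, had 2.55, 0 and 2.08 in the lymphomas and 19.1, 15.7 and 42.6 in the controls (-3.46 ± 0.73, adjusted p = 0.00828). These 2 genes were chosen after their values were seen. The segments other than the leading one in Boxer lymphoma 2 were lower in all 3 lymphomas: TRBV3-1 had 12.7, 15.2 and 26 in the lymphomas and 1036, 1196 and 1399 in the controls (-6.05 ± 0.34, adjusted p = 0.000118), TRBV15 had 9.35, 5.69 and 2.08 in the lymphomas and 519, 538 and 450.1 in the controls (-6.39 ± 0.51, adjusted p = 0.000241) and TRAV29DV5 had 0.85, 0 and 0 in the lymphomas and 243, 250.2 and 128 in the controls (-7.34 ± 0.56, adjusted p = 0.000218). A further segment, TRBV25-1, had 2.55, 5.69 and 1.04 in the lymphomas and 296, 301 and 233 in the controls (-6.24 ± 0.55, adjusted p = 0.0003). TRBV30 lay below every control but did not pass (-1.56 ± 0.63, adjusted p = 0.085). It had 3.4, 7.58 and 15.6 in the lymphomas and 30, 25.6 and 18.5 in the controls.

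The 3 lymphomas also differed among themselves. Of 5760 genes with a symbol and at least 500 normalised reads in the highest lymphoma, Boxer lymphoma 1 lay at least 2 log2 units above both other lymphomas in 63 and below both in 54. The counts were 47 and 34 for Boxer lymphoma 2 and 41 and 60 for Boxer lymphoma 3. These are descriptions of single libraries, with no test. In Boxer lymphoma 1, ROBO1, a receptor for the guidance protein SLIT, had 19514 normalised reads, against 161 and 223 in the others and 9.55, 0.826 and 0 in the controls. LRRN1 had 1996, 4.74 and 1.04 in the lymphomas and 374, 215 and 332 in the controls, and the signalling adaptor SH2D4A had 988, 2.84 and 8.33 in the lymphomas and 15, 12.4 and 6.48 in the controls. LRRN1 was thus near 0 in 2 lymphomas and at a middle level in the controls. DNTT, the polymerase that adds bases to receptor joints in precursors, had 1.7, 2277 and 179 in the lymphomas and 64.2, 58.6 and 42.6 in the controls. OOEP, known from oocytes, had 0, 761 and 544 in the lymphomas and 5.46, 3.3 and 3.7 in the controls, and MREG, a protein of melanosome transport, had 2.55, 487 and 528 in the lymphomas and 10.9, 2.48 and 9.26 in the controls. These 3 genes were lowest in Boxer lymphoma 1 and above every control in the other lymphomas.

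Boxer lymphoma 2 stood out by its receptor segments and by KLRB1, which encodes the killer cell lectin CD161 that also marks some helper cells, with 19.5, 6050.3 and 18.7 in the lymphomas and 61.4, 40.5 and 13 in the controls. It was at control level for 3 genes that the other lymphomas expressed: SPOCK1, a matrix proteoglycan, had 1307, 3.79 and 1227 in the lymphomas and 12.3, 3.3 and 7.41 in the controls, the calcium channel gene CACNA1E had 489, 4.74 and 682 in the lymphomas and 13.6, 13.2 and 3.7 in the controls, and the cartilage protein gene CILP had 146, 1.9 and 1333 in the lymphomas and 10.9, 5.78 and 1.85 in the controls. It was also the lymphoma with the lowest CD5, CD6 and BCL2. In Boxer lymphoma 3, ADORA3, an adenosine receptor, had 62, 91 and 2049 in the lymphomas and 47.8, 61.9 and 35.2 in the controls, PHACTR1, a regulator of actin, had 165, 106 and 3238 in the lymphomas and 17.7, 0.826 and 22.2 in the controls, and CYP4B1, a cytochrome P450, had 0.85, 27.5 and 671 in the lymphomas and no read in any control. The transcription factor gene ZNF711 had 1141, 752 and 8.33 in the lymphomas and 463, 468 and 448 in the controls, ATRNL1 had 1623, 764 and 25 in the lymphomas and 36.9, 23.1 and 17.6 in the controls, and PRDM8, another transcription factor gene, had 2315, 92 and 1.04 in the lymphomas and 2.73, 9.91 and 10.2 in the controls. Boxer lymphoma 3 was within or below the range of the controls for these last 3 genes, where the other lymphomas were above them.

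**Figure D5:**
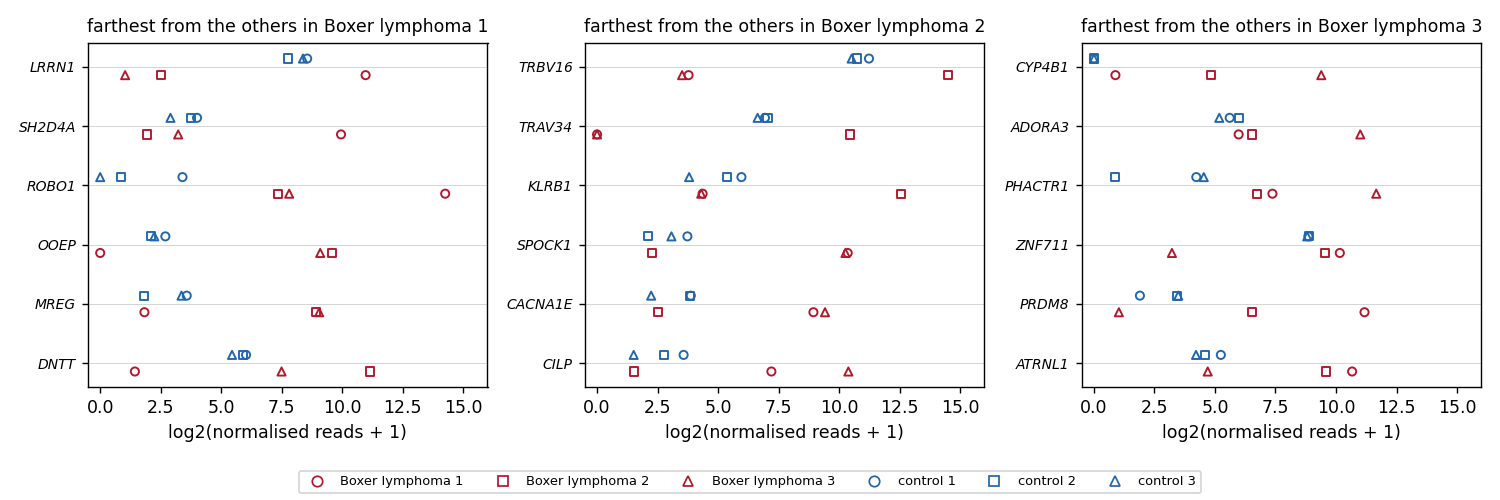
Normalised reads (log2 of value plus 1, x axis) of the genes in which Boxer lymphoma 1 (left), 2 (middle) or 3 (right) lay farthest from the other 2; red symbols are Boxer lymphomas, blue symbols controls. In each panel 1 red symbol stands apart, and ROBO1, TRBV16 and PHACTR1 have the highest value of the left, middle and right panel.

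Some of the largest changes were in features without a symbol, which the files give by identifier only. ENSCAFG00000015693 had 1945, 1988 and 1525 in the lymphomas and 5.46, 0 and 0 in the controls (log2 fold change 9.92 ± 0.74, adjusted p = 0.0002). ENSCAFG00000029339 had 1903, 1835 and 1075 in the lymphomas and 2.73, 3.3 and 0.926 in the controls (8.95 ± 0.46, adjusted p = 0.0001). Among gene models outside Ensembl, Novel02535 had 54.4, 177 and 15.6 in the lymphomas and 13091, 11903 and 11278 in the controls (-7.78 ± 0.73, adjusted p = 0.000379). Novel02534 had 6.8, 19.9 and 0 in the lymphomas and 834, 1522 and 1540.1 in the controls (-7.84 ± 1.00, adjusted p = 0.00115). No lymphoma overlapped a control in these 4 features.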

How the data were processed

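RNA of 9 dog samples was sequenced after oligo(dT) enrichment, per the labels' protocols, and the 3 Boxer lymphomas and 3 controls are used here. The tools named in the submitters' processing notes are TopHat2, HTSeq and DESeq2, and the build is CanFam3.1; versions, annotation and strand are not given in the sources used here. The deposited signal per feature is the authors' read count divided by 1 factor per library: 100% of values in each library were whole multiples of 1 read, within 0.01 reads, and the factors equalled median-of-ratios factors recomputed over the 9 libraries. The 28008 features comprise 24580 with Ensembl identifiers and 3428 further gene models, and 15305 carry a usable symbol. Genes were matched by symbol, and BCL6, CDKN2A and CD4 were not analysed here. Near-identical gene copies and overlapping genes can share reads.

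Features with at least 10 normalised reads in at least 3 of the 6 libraries were tested with limma 3.58.1 (R 4.3.3) on log2(value + 1), with moderated variances and a mean-variance trend, a scale that understates changes of low genes. P-values were adjusted by Benjamini-Hochberg over all genes tested, with a threshold of 0.05. Where a group had no read, the fold is a bound that gives that group 3 reads in all. Features tested with at least 1 group at 0 did not move the median of any list when set to their bound. The fit was tested on simulated data.

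The text names the 12 largest changes per direction with a mean of at least 200 normalised reads in the higher group and no overlap; the 6 smallest p-values per direction with a mean of at least 1000 and a log2 fold change of at least 1 in size; 30 key genes; up to 4 genes per direction of each of 46 lists (11 of them markers of other cell types), with every found member of lists of 10 or fewer; the 3 genes per direction in which 1 lymphoma lay farthest from the other 2; and leading V segments. Some genes chosen by these rules are not reported here. TRAC, TRDC, CD6, CD8A and marker genes at 0 were added after their values were seen. The comparison, the lists and the rules were chosen with earlier results of these data known, so lists are described by counts and medians and not tested. Shares of reads were compared by exact permutation, over the 20 ways of splitting 6 libraries into 3 and 3. Alternatives were other scaling factors, pseudocounts of 0.5 and 5, no filter or one of 50, edgeR 4.0.16 and DESeq2 1.42.0 on the recovered reads, all 9 libraries in the fit, a replicate block, leaving out each library, and Boxer lymphoma 2 alone; the last 2 kept the 15155 genes tested, and a lone sample is assumed to vary like the controls. The lymphomas varied more than the controls (median SD 0.47 against 0.24 log2 units). The spread assumed for Boxer lymphoma 2 alone is thus likely too small. The replicate numbers do not pair the samples.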

Additional observations from a re-analysis of the deposited data

How the results depend on the processing

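The counts of 3256 higher and 2706 lower genes stayed within 1.5 times under every alternative except those without control 2 or control 3. Leaving out each library in turn gave 2162 to 3295 higher and 1514 to 2888 lower genes; without control 2 they were 2162 and 1514, and without control 3 the lower count was 1642. DESeq2 gave 3687 higher and 2859 lower, edgeR 3236 and 2445, the filter of 50 reads 2523 and 2344, and all 9 libraries 2965 and 2304. With the replicate number as a block there were 2937 higher and 2381 lower; deviations of same-numbered controls and lymphomas correlated at -0.02, 0.06 and -0.03, so the numbers do not pair the samples. Of 242 genes that the naming rules chose and that passed, 200 kept direction and call under all alternatives; 27 lost the call without control 2, 25 without control 1, 21 without control 3, 20 with Boxer lymphoma 2 alone and 19 with all 9 libraries. Sign reversals occurred only in genes that did not pass. BCL2 was 0.11 with edgeR and DESeq2 and -1.44 to 0.65 over the fits without 1 library (0.65 without Boxer lymphoma 2). TRAC was 0.0481 with edgeR, 0.0503 with DESeq2, -0.34 to 0.38 without 1 library (0.38 without Boxer lymphoma 3) and 0.47 with Boxer lymphoma 2 alone. MZB1 was 0.0624 with a pseudocount of 5, 1.04 with edgeR, 1.05 with DESeq2, -1.44 to 0.68 without 1 library (0.02, 0.30 and 0.68 without control 2, Boxer lymphoma 1 and Boxer lymphoma 3) and 2.42 with Boxer lymphoma 2 alone. DERL3 was -0.17 to 0.15 without 1 library (above 0 without control 3 or Boxer lymphoma 1) and 0.15 with Boxer lymphoma 2 alone. The cause was not tested.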
